A study of Bos taurus with 12 samples.

Results

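The pair bta-miR-221 and bta-miR-222 was followed in bovine granulosa cells from subordinate (SF) and dominant (DF) follicles, collected on day 3 or on day 7 of the estrous cycle. The pair was chosen by name from the 755 mature miRNA names of the count files, so it makes up 2 of 755, and each name had 1 precursor entry. The choice was made with earlier results of these counts known, namely the SF to DF differences of both miRNAs at each day and their opposite direction between the days. The levels and changes of the pair are therefore given as a description, without p values, and whether a member passed the study's thresholds is stated only beside the share of all miRNAs that did, not as support for the pattern. Small RNA was sequenced in 12 libraries, 3 biological replicates in each of the 4 groups (SF and DF at each day), all from Simmental heifers whose estrus was synchronized with the prostaglandin F2α analogue cloprostenol and the GnRH analogue buserelin. Follicles were put into SF or DF by their diameter alone, with other size limits at day 7 than at day 3. Their granulosa cells were pooled by follicle size, the DF group of day 7 rested on the fewest follicles, and the days came from different heifers. Nothing in the labels ties a replicate to an animal, so the spread between replicates may be in part technical.

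Both miRNAs are made from neighbouring hairpins on the X chromosome and carry the same seed, the stretch near the 5′ end that recognises target mRNAs. They are known as repressors of the cell cycle inhibitor CDKN1B and of the receptor KIT, and they are abundant in proliferating and in endothelial cells. Granulosa cells line the follicle, divide as it grows, make estradiol and later turn into luteal cells, while KIT ligand from granulosa cells acts on KIT of the oocyte and the theca. In the RefSeq annotation of assembly ARS-UCD2.0, which is not the assembly the reads were aligned to, MIR221 and MIR222 were adjacent with 0 genes between them, and both lay within the span of the uncharacterised long noncoding RNA LOC132344329. The nearest protein coding genes on either side were ZNF674 and DIPK2B.

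The reads on known miRNAs, with a single entry kept per mature name, ranged from 160418 to 405129 per library. In these, 3 reads were between 0.000741% and 0.00187% of a library. Libraries were scaled by median-of-ratios factors between 0.601 and 1.64, and a normalized count is a raw count divided by this factor. The cell type was checked by bta-miR-202, a miRNA of the gonads, which had between 2213 and 3673 normalized counts in the 9 libraries other than DF at day 7, and 753, 364 and 976 in DF at day 7. Markers of leukocytes and of stroma were higher in DF at day 7 than elsewhere. The sum of 4 leukocyte miRNAs (bta-miR-142-3p, bta-miR-142-5p, bta-miR-150 and bta-miR-223) was 3110, 8636 and 783 in the 3 libraries of this group, against 108 to 705 in the other 9. Most of this sum was bta-miR-142-5p, with 2636, 6845 and 643 normalized counts in DF at day 7. Of the other markers, bta-miR-223 had at most 8.32 in any library, and bta-miR-142-3p had no read in any library of day 3. The bta-miR-143 and bta-miR-145 sum, of smooth muscle and stroma, was 6723 to 14191 in DF at day 7 and 2206 to 4909 in the others, while the ranges of the endothelial bta-miR-126 arms (130.0 to 160.2 against 61.6 to 220.5) and of the erythrocyte list (808 to 2322 against 315 to 1642) overlapped. In such bulk samples fewer cells of a type and less of its RNA per cell cannot be told apart.

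The miR-221 level was lowest in DF at day 3 and highest in DF at day 7, with SF of both days between them. In SF at day 3, bta-miR-221 had 59.7, 43.1 and 47.6 normalized counts in replicates 1 to 3, from 67, 32 and 39 raw reads. In DF at day 3 it had 15.8, 18.3 and 12.7, from 21, 30 and 13 reads. All SF libraries of this day lay above all DF libraries, by a factor of at least 2.35 between the nearest ones. At day 7, the SF libraries had 46.3, 239 and 137 normalized counts (52, 236 and 141 reads), and replicate 1 lay within the range of SF at day 3. The DF libraries of day 7 had 1846, 3074 and 1245 normalized counts (2159, 1848 and 1383 reads). Each of them exceeded every library of the other groups by a factor of at least 5.21. The day 3 means were 50.2 ± 8.60 for SF and 15.6 ± 2.82 for DF, and the day 7 means 141 ± 96.2 for SF and 2055 ± 932 for DF (SD, n = 3 each).

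The levels of miR-222, its cluster partner, were in the same order with fewer reads. In SF at day 3, bta-miR-222 had 40.1, 24.2 and 46.4 normalized counts (45, 18 and 38 reads). In DF at day 3 it had 3.76, 4.28 and 11.7, from only 5, 7 and 12 reads, so that its level in this group is imprecise. The 95% Wilson interval of its share was 0.000612% to 0.00335% of the library in DF replicate 1 and 0.00294% to 0.00899% in DF replicate 3, which covers counting error only. Even the highest DF library of day 3 was below the lowest SF library of that day. At day 7, bta-miR-222 had 37.4, 122 and 78.0 normalized counts in SF (42, 121 and 80 reads) and 644, 1164 and 526 in DF (753, 700 and 584 reads). Again SF replicate 1 was the lowest of the SF libraries of day 7 and DF replicate 2 the highest of all libraries. Its means on day 3 were 36.9 ± 11.4 for SF and 6.59 ± 4.46 for DF, and on day 7 they were 79.3 ± 42.5 for SF and 778 ± 339.8 for DF (SD, n = 3 each).

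**Figure D1:**
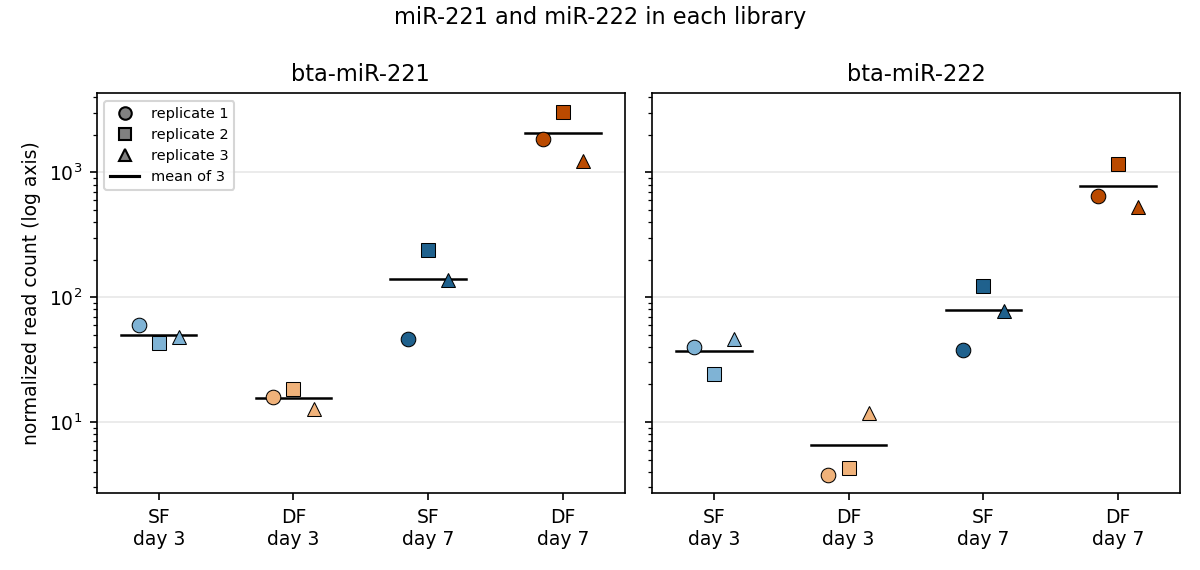
Normalized read counts (log axis) of bta-miR-221 (left) and bta-miR-222 (right) in the 12 libraries, with marker shapes for the replicates and a line at the mean of the 3 replicates of each group. DF at day 3 holds the lowest and DF at day 7 the highest libraries of both miRNAs, and the SF libraries of the days overlap.

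Ordered from low to high, the groups were DF at day 3, SF at day 3, SF at day 7 and DF at day 7 for both miRNAs. Neighbours in this order did not overlap, other than SF at day 3 and SF at day 7, which overlapped for both miRNAs. Of all miRNAs tested, 14.9% had SF fully above DF at day 3 and 23.1% had SF fully below DF at day 7. As a share of the reads of a library, bta-miR-221 made up 0.701%, 1.15% and 0.424% in DF at day 7, where it was between the 20th and the 30th most abundant miRNA. In DF at day 3 it was between the 151st and the 163rd, at 0.00633% ± 0.000957 (SD, n = 3). In SF its place ranged from the 114th to the 126th at day 3 and from the 74th to the 128th at day 7. The share of bta-miR-222 was 0.287% ± 0.134 (SD, n = 3) in DF at day 7, with a place between the 40th and the 57th, and 0.00277% ± 0.00206 in DF at day 3, with a place between the 170th and the 214th. Within SF at day 7 the highest library had 5.15 times the bta-miR-221 of the lowest, and 3.27 times the bta-miR-222. These spreads compare with 1.39 and 1.92 times in SF at day 3.

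The comparison of SF with DF at day 3 asks which miRNAs differ while follicles are recruited and selected. Both members of the pair were higher in SF. In SF relative to DF the log2 fold change was 1.62 (standard error 0.27) for bta-miR-221, a 3.08-fold difference, and 2.53 (standard error 0.39) for bta-miR-222, a 5.78-fold difference. Both passed the thresholds of the study for differential expression in edgeR's quasi-likelihood test (a log2 fold change of 1 or more in either direction, a p no higher than 0.05 and a false discovery rate no higher than 10%). Of the 335 miRNAs tested, 19 passed in either direction, 5.67%, and 13 with higher counts in SF, 3.88%. SF libraries lay fully above DF libraries for 50 miRNAs, 14.9%. A larger increase in SF was fitted for 23 of the tested miRNAs than for bta-miR-221 and for 10 than for bta-miR-222. Without DF replicate 3, the library of its group with the most reads of bta-miR-222, that miRNA had a log2 fold change of 3.13 (standard error 0.44). Without DF replicate 2 it had 2.25 (standard error 0.47). With all 12 libraries in a single fit, bta-miR-221 had a log2 fold change of 1.67 (standard error 0.50) and no longer passed. On this day the leukocyte sums of SF (108 to 220.2) and DF (116 to 162) overlapped, and none of the 3 leukocyte miRNAs tested passed with edgeR or DESeq2, with 0 at an unadjusted p of at most 0.05. Both stroma miRNAs were higher in SF at an unadjusted p of at most 0.05 without passing the thresholds, at log2 fold changes of 0.53 (standard error 0.16) for bta-miR-143 and 0.65 (standard error 0.20) for bta-miR-145. Their part in the difference of the pair was not tested.

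At day 7, when the dominant follicle is established, the difference had the opposite direction. In SF the log2 fold change against DF was -3.80 (standard error 0.58) for bta-miR-221 and -3.23 (standard error 0.48) for bta-miR-222, or 13.9-fold and 9.38-fold fewer counts in SF. Both passed the thresholds. So did 117 of 350 miRNAs (33.4%) in either direction and 64 (18.3%) with lower counts in SF, while 81 (23.1%) had every SF library below every DF library. A larger decrease in SF was fitted for 5 miRNAs than for bta-miR-221 and for 20 than for bta-miR-222. Without SF replicate 2, the SF library with most reads of the pair, the log2 fold change of bta-miR-221 was -4.43 (standard error 0.59). It was -3.37 without SF replicate 1 (standard error 0.51) or without DF replicate 2 (standard error 0.64).

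Of the 4 leukocyte miRNAs, 3 were also lower in SF at day 7 with edgeR, while DESeq2 called 2 of the 4. The log2 fold changes were -3.40 for bta-miR-142-5p and -3.74 for bta-miR-150, while bta-miR-142-3p had at most 6.65 normalized counts in any library. The median of the 4 was -3.21 against -0.05 over all miRNAs tested. The erythrocyte miRNAs bta-miR-451 and bta-miR-486 were lower in SF too (-1.76 and -1.56), as was bta-miR-143 (-1.32), and bta-miR-202 was higher in SF (1.81). In DF at day 7, the library with the highest leukocyte sum, replicate 2, had the highest counts of both members, and the library with the lowest, replicate 3, had the lowest. The spread was not alike. From replicate 3 to replicate 2 the leukocyte sum went from 783 to 8636, and bta-miR-221 from 1245 to 3074. In SF at day 7, replicate 2 was highest in both, while replicates 1 and 3 had leukocyte sums of 184 and 209 beside 46.3 and 137 normalized counts of bta-miR-221. The sum of bta-miR-143 and bta-miR-145 was lowest in DF replicate 2. The part of these cells in the difference of the pair was not tested.

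**Figure D2:**
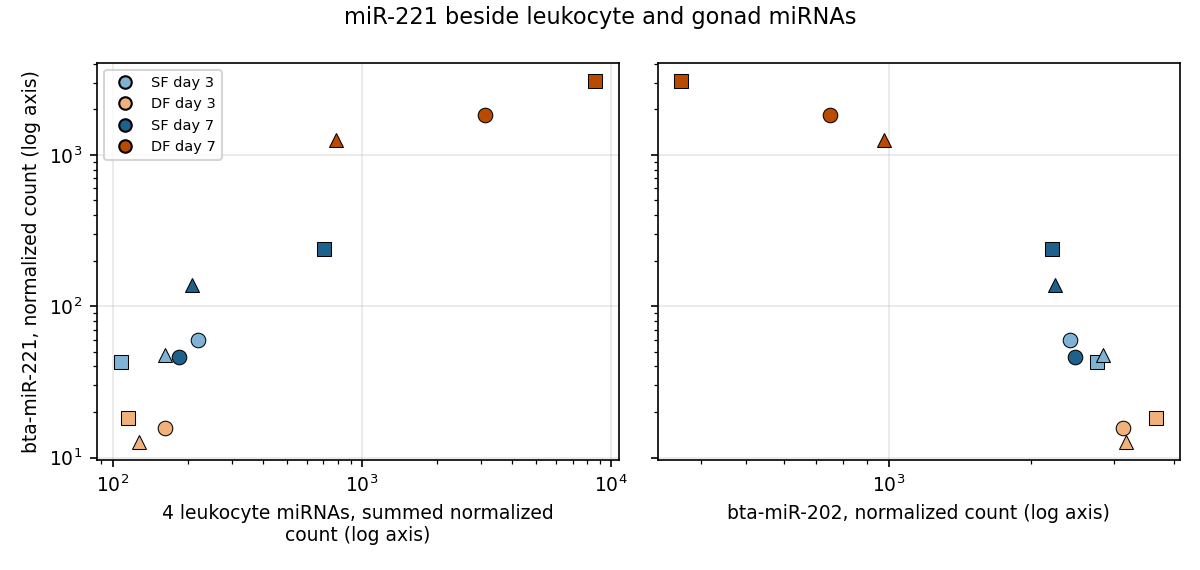
Normalized count of bta-miR-221 (log axis) in each of the 12 libraries against the summed normalized count of 4 leukocyte miRNAs (left, log axis) and against that of bta-miR-202, a gonad miRNA (right, log axis). Colours mark the groups and shapes the replicates (circle 1, square 2, triangle 3). The 3 DF libraries of day 7 are the lowest in bta-miR-202, at 364 to 976. Their leukocyte sums of 783 to 8636 are the highest, but the lowest of them is close to SF replicate 2 of day 7, at 705.

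The comparison of the days within DF sets the follicles classed as dominant at day 7 beside those at day 3. These came from different heifers and under other size limits, so no follicle was followed over time. The paper proposes that follicles may not yet be dominant at day 3. This comparison shares its libraries with the comparisons of SF and DF above. Here the pair showed its largest change. The log2 fold change of day 7 against day 3 was 7.00 (standard error 0.39) for bta-miR-221 and 6.93 (standard error 0.46) for bta-miR-222, which is 128-fold and 122-fold. Both miRNAs were differentially expressed, as were 145 of 360 miRNAs (40.3%) in either direction and 88 (24.4%) with higher counts at day 7. For 90 miRNAs (25.0%) every library of day 7 lay above every library of day 3, which held for both members, with gaps of at least 67.9 times for bta-miR-221 and 44.8 times for bta-miR-222. Only 2 miRNAs had a larger increase than bta-miR-221 and 3 than bta-miR-222. Of the other cell markers, all 4 leukocyte miRNAs increased in DF from day 3 to day 7, with a median log2 fold change of 4.92 against 0.05 over all miRNAs tested, or 4.05 with bta-miR-142-3p, which had no read at day 3, set to its bound against 3 reads per library. The miRNAs bta-miR-143, bta-miR-145 and, among the endothelial arms, bta-miR-126-3p (1.05) increased as well, none of the 3 erythrocyte miRNAs passed with edgeR or DESeq2 (1 at an unadjusted p of 0.05), and bta-miR-202 decreased (-2.28). Their part in the change of the pair was not tested.

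In SF, the pair did not pass the thresholds between the days. The log2 fold change of day 7 against day 3 was 1.50 (standard error 0.44) for bta-miR-221 and 1.12 (standard error 0.40) for bta-miR-222. The test called 2 of 337 miRNAs (0.593%), of which 1 (0.297%) had higher counts at day 7, and 37 had an unadjusted p of at most 0.05. Fully higher libraries at day 7 were seen for 23 (6.82%), to which neither member belonged, since SF replicate 1 of day 7 lay among the libraries of day 3. Without that replicate the log2 fold changes were 1.90 (standard error 0.28) and 1.44 (standard error 0.31), both miRNAs passed, and so did 20 miRNAs in all. Without SF replicate 2 of day 7 they were 0.83 (standard error 0.37) and 0.61 (standard error 0.36), and neither passed. With DESeq2 the change of bta-miR-221 passed as well, at 1.51, where 5 of 337 miRNAs were called. Of the 3 leukocyte miRNAs tested, none passed with edgeR or DESeq2, but 2 had an unadjusted p of at most 0.05, bta-miR-142-5p at 1.22 (standard error 0.45) and bta-miR-150 at 1.06 (standard error 0.48), and the median of the 3 was 1.06 against 0.03 over all miRNAs. Their part in the change of the pair was not tested. Replicate 1 of SF at day 7 also differed more from the other SF libraries of its day (chi-square per degree of freedom 92.3 and 82.8) than those did from each other (18.7).

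**Figure D3:**
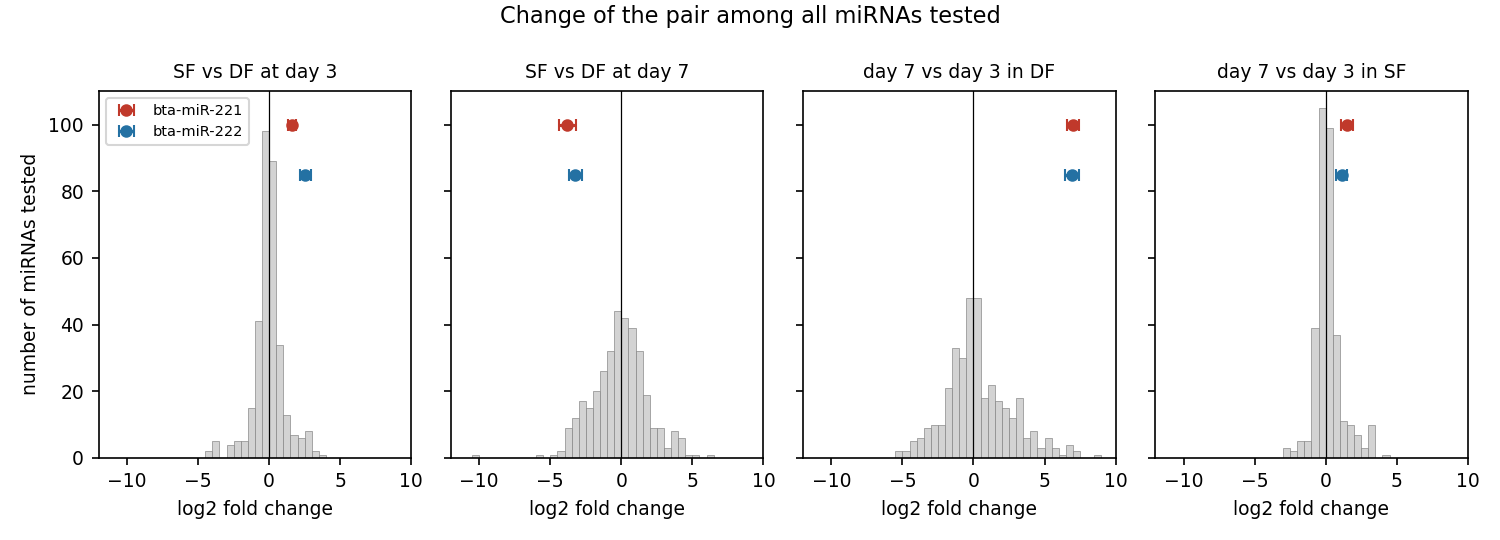
Histograms of the log2 fold change of all miRNAs tested (number of miRNAs on the vertical axis) in the 4 comparisons, with bta-miR-221 and bta-miR-222 as points with bars of 1 standard error at an arbitrary height. The pair lies to the right at day 3, to the left at day 7, far to the right between the days in DF and at 1.50 and 1.12 in SF.

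Whether the difference between SF and DF itself changed from day 3 to day 7 was asked by a follicle by day term over all 12 libraries. The change was -5.54 on the log2 scale (standard error 0.65) for bta-miR-221 and -5.85 (standard error 0.67) for bta-miR-222. These values restate the pattern that the pair was chosen for and are no separate support for it. The thresholds were passed by 100 of 378 miRNAs (26.5%) in either direction and by 54 (14.3%) in this direction, the pair among them. Of the tested miRNAs, 6 went further in this direction than bta-miR-221 and 3 further than bta-miR-222. Without SF replicate 2 of day 7 the change of bta-miR-221 was -6.14 (standard error 0.58), and without DF replicate 2 of day 7 it was -5.09 (standard error 0.69). The same term was called lower for 2 of 4 leukocyte miRNAs, bta-miR-142-5p (-3.79) and bta-miR-150 (-3.84), for both stroma miRNAs (-1.98 for bta-miR-143 and -1.66 for bta-miR-145) and for the erythrocyte bta-miR-451 (-1.82). Their part in the change of the pair was not tested.

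The ratio of the members within a library needs no scaling, since a common factor cancels. It is a ratio of reads, in which the ease of cloning each sequence is included. Reads of bta-miR-221 outnumbered those of bta-miR-222 in each of the 12 libraries, by as little as 13 to 12 in DF replicate 3 at day 3. Of the reads of the pair, bta-miR-222 made up 40.2%, 36.0% and 49.4% in SF at day 3 and 44.7%, 33.9% and 36.2% in SF at day 7. In DF at day 7 it made up 25.9%, 27.5% and 29.7%, from 2912, 2548 and 1967 reads of the pair. All 3 DF libraries of day 7 therefore lay below all 6 SF libraries. Their counting error was not always apart, since the 95% Wilson interval of DF replicate 3 at day 7 was 27.7% to 31.7%. It overlapped the intervals of SF replicates 1 and 2 at day 3 and of SF replicates 2 and 3 at day 7, but not those of the other SF libraries. In DF at day 3 it made up 19.2%, 18.9% and 48.0%, and with 26, 37 and 25 reads of the pair in these libraries the 95% Wilson intervals spanned 8.51% to 37.9%, 9.48% to 34.2% and 30.0% to 66.5%. Replicates 1 and 2 thus lay below every SF library, and replicate 3 lay within the range of the SF libraries. The difference in this share between SF and DF was not tested at either day. With 0.5 reads added to each count, the mean ratio of bta-miR-222 to bta-miR-221 on day 3 was 0.739 ± 0.210 for SF and 0.476 ± 0.390 for DF, and on day 7 it was 0.631 ± 0.157 for SF and 0.383 ± 0.0370 for DF (SD, n = 3 each). Without replicate 3 of DF at day 3 the mean of that group was 0.251.

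**Figure D4:**
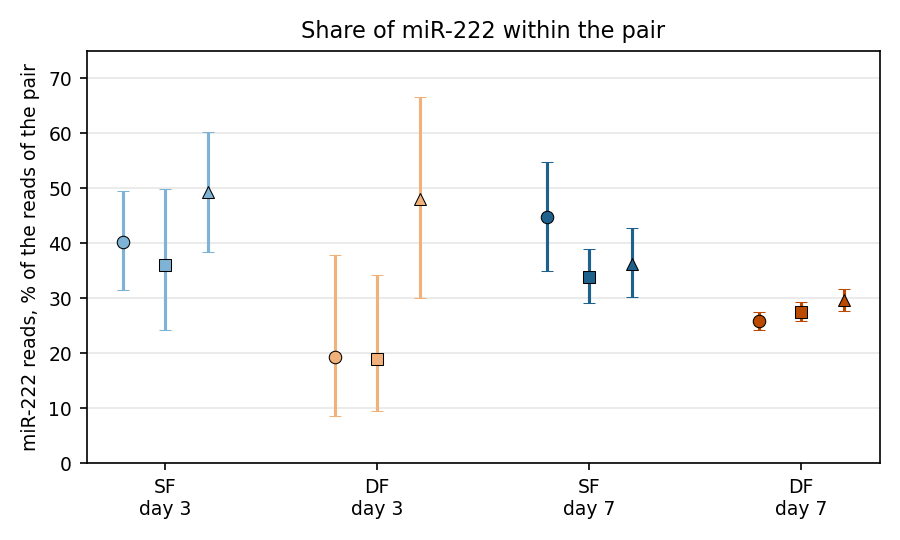
Reads of bta-miR-222 as a percentage of the reads of bta-miR-221 and bta-miR-222 together in each library, with 95% Wilson intervals that cover counting error only (circle, square and triangle for replicates 1, 2 and 3). The DF libraries of day 7 lie between 25.9% and 29.7%, below the SF libraries of both days, and of the DF libraries of day 3 replicates 1 and 2 lie at 19.2% and 18.9% and replicate 3 at 48.0%, with wide intervals.

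The miRNAs with the most similar pattern were sought among the 185 miRNAs with a mean of at least 10 normalized counts, by the root mean square difference of log2(normalized count + 1) over the 12 libraries after centring each miRNA on its own mean. Nearest to both members was bta-miR-155, which is processed from the BIC transcript and is known for its role in activated leukocytes, at a distance of 0.42 from bta-miR-221 and 0.40 from bta-miR-222, where the median distance of the 185 was 2.65 and 2.53. The distance between the members was 0.60, so that bta-miR-222 was the 4th nearest of bta-miR-221, and bta-miR-221 the 3rd nearest of bta-miR-222. The other 3 miRNAs among the 5 nearest were the same for both members. They were bta-miR-21-3p (0.58 and 0.48) and bta-miR-21-5p (0.69 and 0.64), the arms of a miRNA known to restrain apoptosis of granulosa cells, and bta-miR-708 (0.54 and 0.85). In DF at day 3, bta-miR-222 had only 5, 7 and 12 reads, and bta-miR-708 had a mean of 3.95 normalized counts. The order among the nearest miRNAs, and the place of the members in it, is therefore imprecise. All these distances share the same 12 libraries and their scaling, so the likeness is a description. With the libraries scaled by their totals alone, the same 5 miRNAs were nearest to each member.

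For bta-miR-155, the mean normalized counts on day 3 were 103 ± 18.9 for SF and 26.1 ± 7.85 for DF, and on day 7 they were 378 ± 210.0 for SF and 3906 ± 1176 for DF (SD, n = 3 each). The most abundant of the 4, bta-miR-21-5p, went on day 3 from 737 ± 72.4 for DF to 2491 ± 63.0 for SF, and on day 7 from 4924 ± 2803 for SF to 36696 ± 6726 for DF. The least abundant, bta-miR-708, went on day 3 from 3.95 ± 1.19 for DF to 11.5 ± 3.83 for SF, and on day 7 from 21.7 ± 14.4 for SF to 300.1 ± 43.0 for DF. Each of the 4 was lowest in DF at day 3 and highest in DF at day 7, as the members were. In contrast to the members, DF replicate 2 of day 7 was the lowest library of its group for bta-miR-21-5p (29826 normalized counts, against 36995 and 43268) and for bta-miR-21-3p (1079.5, against 1205 and 1462). For bta-miR-155 it was the highest (5215, against 3565 and 2937), as for the members. It was also the highest for bta-miR-708, by centred log2 values of 3.87 against 3.46 and 3.63.

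**Figure D5:**
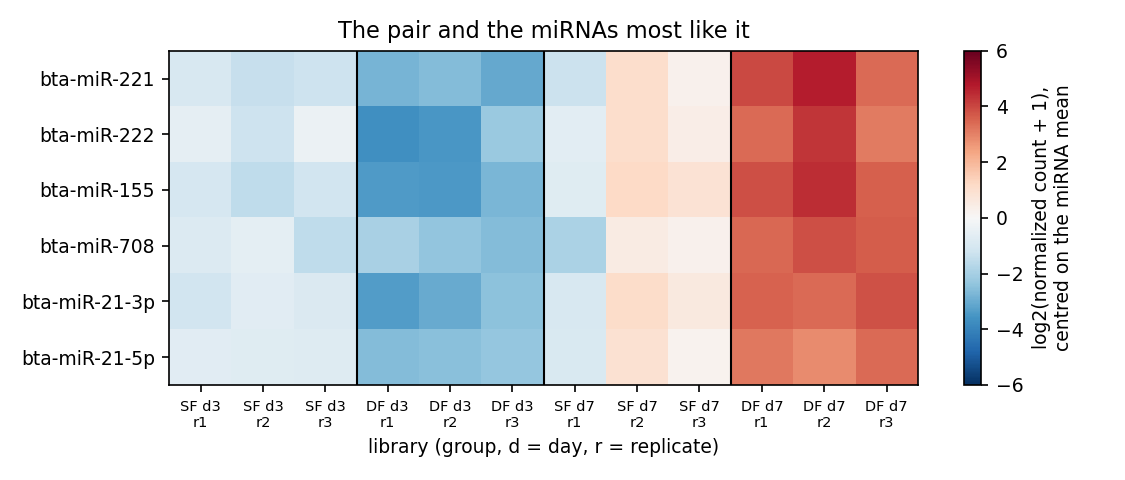
Heatmap of log2(normalized count + 1), centred on the mean of each miRNA over the 12 libraries, for the pair and the 4 other miRNAs among the 5 nearest to either member. The DF libraries of day 7 are high and those of day 3 low in every row, and replicate 1 of SF at day 7 is below the other SF libraries of that day.

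As background, miR-221 and miR-222, miR-21, miR-155 and miR-146 are described as targets of growth and inflammatory signalling through the transcription factors AP-1 and NF-kB. Of 5 such miRNAs beside the pair (both arms of miR-21, bta-miR-155, bta-miR-146a and bta-miR-146b), 3 were increased in SF at day 3, where 3.88% of all miRNAs tested were, with a median log2 fold change of 1.71 against -0.04 over all miRNAs. The others, bta-miR-146a and bta-miR-146b, had log2 fold changes of 0.25 (standard error 0.21) and 0.71 (standard error 0.20) and did not pass. At day 7 all 5 were lower in SF (median -2.81 against -0.05), as were 18.3% of all miRNAs. In DF all 5 increased from day 3 to day 7 (median 5.62 against 0.05), as did 24.4% of all miRNAs. In SF, bta-miR-155 passed between the days (log2 fold change 1.89, standard error 0.37) and the other 4 did not, while DESeq2 called 3 of the 5. All 5 had an unadjusted p of at most 0.05 with edgeR and log2 fold changes between 0.87 and 1.89. This list holds 3 of the 4 miRNAs named above for their likeness and was put together with their behaviour known, so it is no separate support.

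A second list held 6 miRNAs of the gonad and of the gonadotropin response. At day 3, only bta-miR-212, which together with bta-miR-132 is known to be induced by luteinizing hormone, was increased in SF (log2 fold change 2.41, standard error 0.78), from 0.751 to 1.22 normalized counts in DF to 5.35 to 7.33 in SF. DESeq2 called none of the 6, of which 3 had an unadjusted p of at most 0.05 with edgeR. Their median was 0.62 against -0.04. At day 7, DESeq2 called 2 of the 6. With edgeR, 3 of the 6 were increased in SF and none decreased, where 15.1% of all miRNAs tested were increased in SF. These were bta-miR-202 (1.81), bta-miR-224 (3.55, standard error 0.38) and bta-miR-383, which had 1.95 to 2.67 normalized counts in SF and no read in DF. The median of the 6 was 1.23 against -0.05 over all miRNAs, or 0.33 with bta-miR-383 at its bound. The miRNAs bta-miR-224 and bta-miR-383 are known to promote estradiol release by granulosa cells. In DF from day 3 to day 7, bta-miR-132 increased (2.68, standard error 0.44), from counts of 2.25 to 6.84 to counts of 26.6 to 42.3, while bta-miR-202 (-2.28) and bta-miR-224 (-3.48) decreased. A decrease was called for 15.8% of all miRNAs tested. The median of the 6 was -0.70, and it was 0.44 with bta-miR-383 at its bound. Between the days in SF none of the 6 passed with edgeR or DESeq2, and 1 had an unadjusted p of at most 0.05.

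By their precursors, 744 of the 755 names were matched to RefSeq, and 57 of them besides the pair were on the X chromosome. Among the 41 of these tested at day 3, none was differentially expressed between SF and DF with edgeR or DESeq2, and 7 had an unadjusted p of at most 0.05 (median log2 fold change -0.14 against -0.04 over all miRNAs). At day 7, 8 of 41 were differentially expressed, all with higher counts in SF (median 0.40 against -0.05). This share of 19.5% stands beside 33.4% of all miRNAs in either direction and 15.1% with higher counts in SF. Between the days in DF, 12 of 40 were differentially expressed, of which 10 had lower counts at day 7 and 2 had higher counts (median -0.43 against 0.05). Of all miRNAs, 40.3% were called in either direction, 15.8% with lower and 24.4% with higher counts at day 7. Between the days in SF none of the 43 tested passed with edgeR or DESeq2, and 2 had an unadjusted p of at most 0.05.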

How the data were processed

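MiRNA enriched RNA of granulosa cells was made into libraries with the TruSeq small RNA kit and sequenced on an Illumina HiSeq. Per the labels and the study's methods, the authors called bases with CASAVA 1.8.0, checked and trimmed reads with FastQC and cutadapt, aligned them to the UMD 3.1 genome and counted known miRNAs with miRDeep2. The deposited values are raw read counts per mature miRNA and precursor (906 entries, 755 mature names). A mature miRNA with several precursors was taken at its entry with the highest total, which did not concern the pair. The kept entries held 160418 to 405129 reads per library. Some names had identical fitted values, so a read may be counted under several names, in these totals and in the shares of miRNAs called. Reads carry no molecular identifiers, so intervals cover counting error only.

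Counts were tested with edgeR 4.0.16 in R 4.3.3 (quasi-likelihood test, median-of-ratios factors, prior count 0.125) on miRNAs read in 2 or more of the 3 replicates of either group, as in the study, and p-values were adjusted by Benjamini-Hochberg over all miRNAs tested. Each of the 4 comparisons used its own 6 libraries, and the follicle by day term all 12. The standard error is the absolute log2 fold change over the square root of F. DESeq2 1.42.0, other factors and filters, prior counts, sums over precursors, a replicate block and leaving out each library were tried as alternatives. Named miRNAs were the pair, the 5 nearest to each member and the members of the lists. The pair and the lists (AP-1 and NF-kB responsive, gonad and gonadotropin, endothelial, smooth muscle and stroma, leukocyte, erythrocyte, X chromosome) were chosen with earlier results of these counts known.

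Equal replicate numbers of SF and DF at day 7 had correlations of 0.13 to 0.18 over the 3 pairs, and unequal numbers -0.14 to 0.02. A correlation of 0.13 also arose between DF replicate 1 of day 7 and DF replicate 2 of day 3, which came from different heifers. Equal numbers may pair the samples at day 7, but correlations this small cannot decide it, and no source used here says so. The printed values of day 7 come from the fit without the replicate block. With it they were -3.95 (standard error 0.33) and -3.28 (standard error 0.33), and both members kept their call. No library duplicated another of its own group (chi-square per degree of freedom between replicates 10.2 to 128). Libraries of different groups were not compared in this way.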

Additional observations from a re-analysis of the deposited data

Results flagged for a closer look

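The difference between SF and DF was not alike at both days for either miRNA, as described by the follicle by day term over all 12 libraries. The change in this difference was -5.54 on the log2 scale (standard error 0.65) for bta-miR-221, from 1.62 at day 3 to -3.80 at day 7 in the separate comparisons, and -5.85 (standard error 0.67) for bta-miR-222, from 2.53 to -3.23. For both miRNAs, all 3 SF libraries lay above all 3 DF libraries at day 3, as for 14.9% of all miRNAs tested. They lay below them at day 7, as for 23.1%. The pair was chosen with this pattern known, so the term is a description of it and no separate support.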

How the results depend on the processing

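The direction of both miRNAs was kept in every alternative run. Both stayed differentially expressed at day 7, between the days in DF and in the follicle by day term under each of them, while at day 3 only bta-miR-221 was lost once, at 1.67 (standard error 0.50) with all 12 libraries in a single fit. Between the days in SF, bta-miR-221 passed with DESeq2 (1.51), with no filter (1.50) and with the replicate block (1.24), and bta-miR-222 with no filter (1.12). Between the days and in the follicle by day term the block ties libraries of different heifers. A call with it there is not one of paired samples. The number of differentially expressed miRNAs moved by over 1.5 times at day 3, in DF and in SF, and the filters also changed the number tested. At day 3 it went from 19 of 335 to 11 of 335 with DESeq2. It was 8 of 335 with all 12 libraries in a single fit and 12 of 187 with a filter of at least 10 reads. In DF it went from 145 of 360 to 92 of 191 with the 10 read filter. In SF it went from 2 of 337 to 5 of 337 with DESeq2 and 12 of 428 with no filter. It was 7 of 337 in SF with the block and 1 of 337 with all 12 libraries. With the 10 read filter it was 0 of 183 in SF by edgeR, where 25 had an unadjusted p of at most 0.05. Outside day 7, the correlations of equal replicate numbers were -0.14 to -0.03 at day 3, -0.12 to 0.03 in DF and -0.08 to 0.11 in SF. At day 3 these values cannot exclude shared animals. Between the days they could not show any, since the days came from different heifers. The block changed no other call of the pair. With the block the log2 values of bta-miR-221 and bta-miR-222 were 1.62 and 2.49 at day 3, -3.95 and -3.28 at day 7, 6.96 and 6.90 in DF, 1.24 and 0.98 in SF and -5.67 and -5.98 for the follicle by day term, with 15, 115, 137, 7 and 106 called. The cause of these changes was not tested.

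Leaving out each library in turn gave 1.46 to 1.74 for bta-miR-221 and 2.25 to 3.13 for bta-miR-222 at day 3, -4.43 to -3.37 and -3.70 to -2.80 at day 7, 6.57 to 7.26 and 6.52 to 7.49 in DF, 0.83 to 1.90 and 0.61 to 1.44 in SF, and -6.14 to -5.09 and -6.43 to -5.41 for the follicle by day term. The number called ranged from 10 to 21 at day 3 (10 without SF replicate 1), 100 to 120 at day 7, 122 to 146 in DF, 0 to 20 in SF and 90 to 106 for the term. In SF, 20 were called without replicate 1 of day 7 and 0 without replicates 1 or 2 of day 3 or replicate 2 of day 7. The mean ratio of bta-miR-222 to bta-miR-221 ranged from 0.622 to 0.824 in SF and 0.251 (without replicate 3) to 0.591 in DF at day 3, and from 0.541 to 0.689 in SF and 0.364 to 0.401 in DF at day 7. Scaling by library totals alone moved the median of all miRNAs by -0.14 at day 7, -0.13 in DF and -0.14 in SF on the log2 scale. The pair then had -3.98 and -3.40 at day 7, 6.88 and 6.79 in DF and 1.33 and 0.94 in SF. Depth limits bta-miR-222 in DF at day 3, which rests on 24 reads in 3 libraries.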
